A study of Homo sapiens with 32 samples.

Results

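The Aurora kinases and their closest partners were followed here as 7 genes, AURKA, AURKB, TPX2, INCENP, BIRC5, CDCA8 and SGO1, which were chosen by name and are 7 of the 19023 genes counted. They were measured in RPE-1, an immortalised human cell line from retinal pigment epithelium with the genotype given as WT. The line is known to leave the cell cycle when serum is withdrawn, but the cell-cycle state at 0 h was not tested here. All groups were first kept without serum for 18 h, and cells were then collected at 0, 5, 10 or 15 h of serum. At each time there were 4 footprint libraries (Ribo-seq, the mRNA fragments that ribosomes shield from nuclease) and 4 RNA-seq libraries of rRNA-depleted total RNA, described by the submitters as biological replicates. No library came from cells kept in serum throughout, or from cells kept without serum up to 5, 10 or 15 h. An effect of serum thus cannot be told apart from that of time alone. The cultures are bulk, so fewer cells expressing a gene and less of its RNA per cell cannot be told apart either. No spike-in is described, and every change is relative to the other genes of the library.

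Aurora A and Aurora B are serine/threonine kinases of mitosis. Aurora A (AURKA) works at centrosomes and on the spindle, where TPX2 binds it, switches it on and carries it to microtubules. Aurora B (AURKB) is the enzyme of the chromosomal passenger complex, which sits at centromeres until chromosomes separate and then moves to the midzone. INCENP is the scaffold that binds and activates Aurora B, survivin (BIRC5) and borealin (CDCA8) bind the other end of INCENP and place the complex on chromatin, and shugoshin 1 (SGO1) protects cohesin at centromeres and helps to recruit the complex there. Most of these genes are known as late cell-cycle genes, with mRNAs that peak in G2 and mitosis. Repressor and activator complexes of the DREAM and MuvB family act at many of their promoters, through an element called the cell cycle homology region. CCAAT boxes are a separate element of such promoters.

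In RefSeq coordinates (GRCh38), AURKA (ENSG00000087586) lies at chr20:56369390-56392215, TPX2 (ENSG00000088325) at chr20:31739290-31801800 and AURKB (ENSG00000178999) at chr17:8204731-8210575. INCENP (ENSG00000149503) lies at chr11:62124011-62153169, BIRC5 (ENSG00000089685) at chr17:78214253-78225635, CDCA8 (ENSG00000134690) at chr1:37692516-37709719 and SGO1 (ENSG00000129810) at chr3:20160593-20186886. The lengths deposited for them are taken here as coding lengths and ran from 438 bases for BIRC5 to 2697 bases for INCENP. Which transcript of a gene they cover, and whether all of its coding sequence, is not given in the sources used here. Pseudogene copies of AURKA, AURKB and SGO1 and an antisense gene of SGO1 are annotated, and how reads shared with them were assigned, or whether counting used strand, is not given in the sources used here.

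Promoter windows were matched in RefSeq (GRCh38.p14) for 4 of the 7 genes, CDCA8, INCENP, SGO1 and AURKB, and the named genes without one are AURKA, TPX2 and BIRC5. The 250 bases before the start of CDCA8 (chr1:37692266-37692515, plus strand) and of INCENP (chr11:62123761-62124010, plus strand) are printed because both hold the element TTTGAA close to the start with 3 CCAAT boxes. Capitals mark TTTGAA and the CCAAT boxes, which read ATTGG where the box is on the other strand.
CDCA8: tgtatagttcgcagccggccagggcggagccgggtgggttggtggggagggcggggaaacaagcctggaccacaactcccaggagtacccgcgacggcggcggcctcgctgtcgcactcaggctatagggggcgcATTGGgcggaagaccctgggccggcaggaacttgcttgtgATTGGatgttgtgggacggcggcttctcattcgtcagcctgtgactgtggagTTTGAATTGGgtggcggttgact
INCENP: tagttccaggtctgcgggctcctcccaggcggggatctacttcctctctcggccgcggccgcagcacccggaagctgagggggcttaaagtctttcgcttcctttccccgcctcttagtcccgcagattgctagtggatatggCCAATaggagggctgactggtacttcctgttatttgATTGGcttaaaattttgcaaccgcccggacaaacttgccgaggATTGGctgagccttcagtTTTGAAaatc
Counted from the start, TTTGAA begins at position -23 in CDCA8 and at -10 in INCENP, on the gene's own strand in both. The CCAAT boxes of CDCA8 begin at -115, -75 and -18, all on the other strand, and the last of these shares 1 letter with TTTGAA. Those of INCENP begin at -107 on its own strand and at -71 and -28 on the other. The SGO1 window, and the AURKB windows for a pair of neighbouring starts, belong to starts inside the gene's span, and whether RPE-1 cells use them was not tested. Counted from those inner starts, SGO1 held CCAAT once, at -28 on its own strand, and AURKB held the same single box on the other strand at -153 and -129. On either strand, TTTGAA occurred in the 250 bases before the start in 13.3% of all 35116 RefSeq windows, and in the last 50 of those bases in 2.28%. CCAAT occurred in 32.01% of the windows, and 3 times or more in 2.93%. Both features of CDCA8 and INCENP, a pairing picked after seeing these sequences, were present together in 27 windows, or 0.0769%. These matches describe letters only.

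Total counts per library ran from 2851423 to 9901322 in footprints and from 595851 to 1107470 in RNA, so the footprint values of these genes rest on more reads. Levels are given in CPM, a gene's count times 1000000 over the TMM-scaled size of its library (TMM is a trimmed-mean scaling, done within each assay), in replicate order 1 to 4. Of 10 markers of differentiated pigment epithelium, RPE65 and TYR had 7 and 2 footprint counts over all 16 libraries, so these defining genes of the tissue were near 0. BEST1, RLBP1 and PMEL were low as well (84, 76 and 40 counts), whereas MITF was at 21.4 to 65.5 CPM and OTX2 at 5.49 to 39.1 CPM. Summed over the 10 genes, footprints were 109 to 127 CPM at 0 h, 40.6 to 44.7 at 5 h, 73.8 to 81.3 at 10 h and 61.1 to 67.8 at 15 h, and the part of such differences in the results below was not tested. KRT8, KRT18, CDH2 and VIM were high in every library and CDH1 was at 3 footprint counts. The 5 summed to 3764 to 4246 CPM of footprints at 0 h, lower than at 5 h (12718 to 13944), 10 h (12258 to 13324) and 15 h (11576 to 12437). Their RNA showed no such rise, with sums of 8209 to 9248 CPM at 0 h, 6800 to 8849 at 5 h, 6529 to 9503 at 10 h and 6009 to 8441 at 15 h. Most of the footprint sum was VIM, which ran from 2265 to 10969 CPM over the 16 libraries. KRT8 ran from 345 to 790 CPM, KRT18 from 526 to 950 and CDH2 from 554 to 1481. Among blood-cell genes, HBB and HBA1 had 0 counts in all 32 libraries, and PTPRC and CD3E had 18 and 6 footprint counts. CD68, a lysosomal protein that is also on that list, had 10329 footprint counts (74.6 to 112 CPM) and 234 RNA counts. The third Aurora kinase, AURKC, which acts in germ cells, had 20 footprint counts and 10 RNA counts over 16 libraries each and was not tested.

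Together the 7 genes took 0.0246% to 0.0330% of all footprint counts at 0 h, 0.00451% to 0.00553% at 5 h, 0.0456% to 0.0531% at 10 h and 0.137% to 0.151% at 15 h (range of 4 libraries). In RNA the same shares were 0.0332% to 0.0393%, 0.00537% to 0.0101%, 0.0324% to 0.0463% and 0.108% to 0.127% at those times. The lowest point was thus 5 h in both assays, with no overlap with the other times, and the highest was 15 h.

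**Figure D1:**
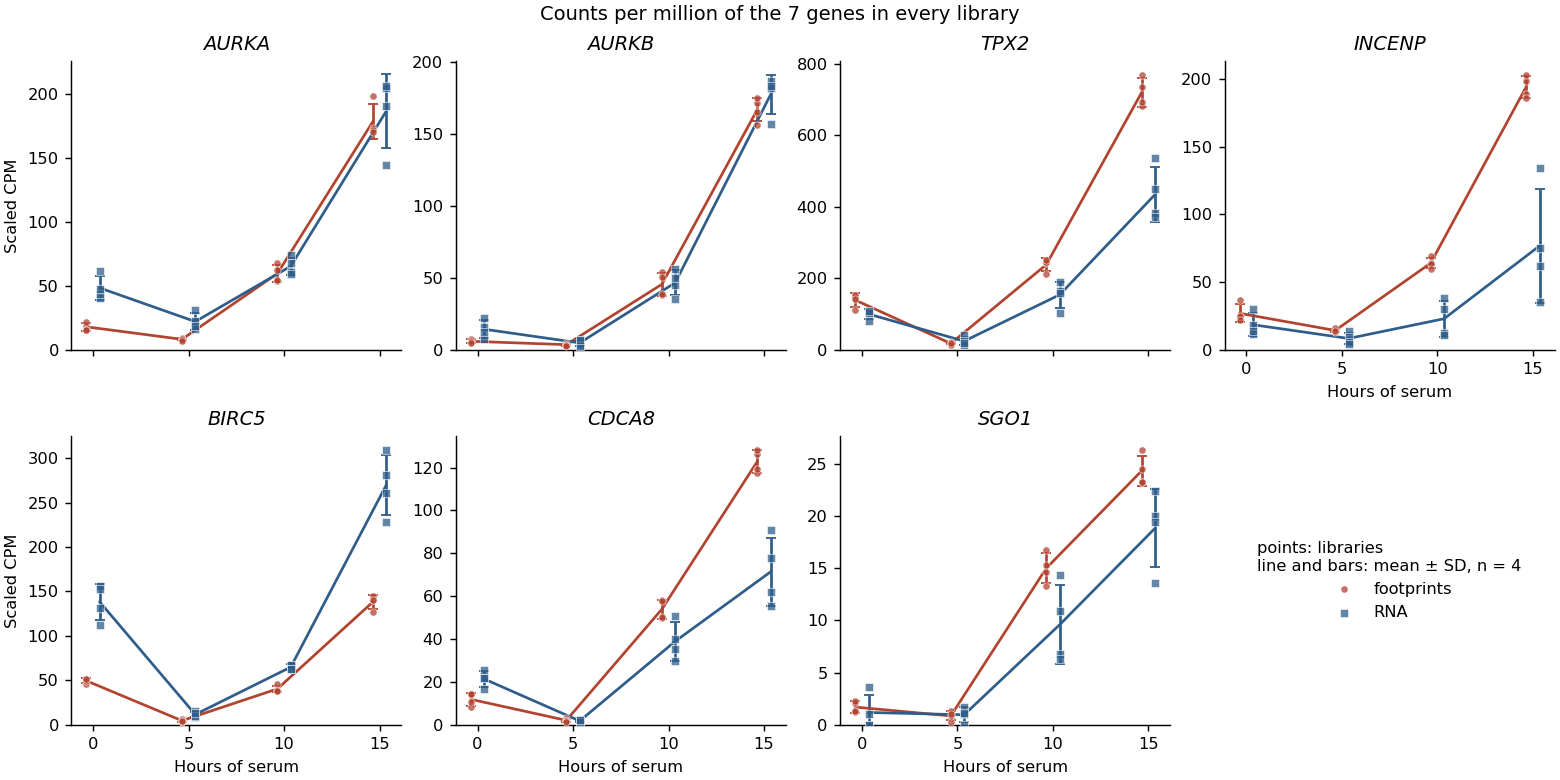
Scaled CPM of each gene (y axis, linear, own scale per panel) against hours of serum (x axis) in footprints (circles) and RNA (squares); points are the 4 libraries of a group and lines with bars are mean ± SD. Every gene has its footprint minimum at 5 h and its maximum at 15 h, and BIRC5 is the gene that at 10 h is still below its 0 h level.

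The first comparison set 5 h of serum against 0 h. All 7 genes fell in footprints and 5 of the 7 fell in RNA. The falls were deepest for BIRC5, CDCA8 and TPX2. A change is called here when edgeR's quasi-likelihood test gives a p under 0.05 after Benjamini-Hochberg adjustment across the whole table of tested genes, and errors beside log2 changes are standard errors (n = 4 libraries a group). Of all genes tested at 5 h against 0 h, 40.5% were called lower and 35.2% higher in footprints, and 16.7% lower and 19.2% higher in RNA. The median log2 change of the 7 was -1.14 in footprints and -1.62 in RNA, against medians over all genes tested of -0.07 and -0.03. The comparisons at 5, 10 and 15 h share the same 0 h libraries.

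AURKA footprints were 9.10, 7.78, 8.31 and 7.10 CPM at 5 h, against 18.6, 15.7, 22.02 and 15.1 CPM at 0 h. AURKA RNA was 31.1, 16.04, 22.4 and 18.4 CPM at 5 h, against 61.8, 40.3, 43.3 and 47.8 CPM at 0 h. Neither pair of groups overlapped, and the log2 change was -1.14 ± 0.14 in footprints and -1.18 ± 0.22 in RNA (adjusted p = 1.08e-08 and 0.000282). TPX2, the activator of Aurora A, had 20.4, 16.9, 14.1 and 17.2 CPM of footprints at 5 h, against 149, 111, 153 and 142 CPM at 0 h. In RNA it had 39.7, 23.1, 12.95 and 19.5 CPM at 5 h, against 107, 104, 108 and 79.2 CPM at 0 h. All 5 h libraries lay below all 0 h libraries. The change was -3.01 ± 0.10 in footprints (8.05-fold lower, adjusted p = 1.30e-19) and -2.12 ± 0.26 in RNA (4.35-fold lower, adjusted p = 1.04e-06). The interval of TPX2's footprint change, -3.22 to -2.80, lay wholly below that of AURKA, -1.44 to -0.85; the difference between the genes was not tested.

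In the passenger complex, AURKB footprints were 4.48, 3.48, 3.10 and 2.79 CPM at 5 h, against 7.69, 5.10, 5.93 and 4.55 CPM at 0 h. Its log2 change of -0.70 ± 0.24 was the smallest of the 7 in footprints (adjusted p = 0.0118). The groups did not overlap, but the highest 5 h library was just under the lowest 0 h library. Its RNA rested on 4, 3, 2 and 6 counts at 5 h, against 6, 15, 15 and 8 counts at 0 h, with a change of -1.62 ± 0.39 (adjusted p = 0.00256). INCENP footprints were 13.1, 14.6, 15.6 and 13.4 CPM at 5 h, against 36.7, 23.8, 24.9 and 21.9 CPM at 0 h, a change of -0.88 ± 0.11 (adjusted p = 1.27e-08). INCENP RNA was 13.8, 9.02, 5.89 and 4.33 CPM at 5 h, against 18.2, 11.7, 30.3 and 13.5 CPM at 0 h. These RNA groups overlapped, and the change of -1.19 ± 0.58 was not called (adjusted p = 0.120, 95% interval -2.41 to 0.03). A fit to the 5 h and 0 h libraries alone called it (-1.18, adjusted p = 0.0306).

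BIRC5 showed the deepest footprint fall of the 7. Its footprints were 6.72, 2.65, 4.09 and 4.69 CPM at 5 h, against 51.5, 45.9, 49.1 and 51.3 CPM at 0 h, and its RNA was 8.63, 15.04, 9.42 and 12.98 CPM at 5 h, against 156, 112, 131 and 152 CPM at 0 h. This is 10.6-fold lower in footprints (-3.41 ± 0.13, adjusted p = 1.69e-24) and 11.5-fold lower in RNA (-3.52 ± 0.20, adjusted p = 7.25e-12). CDCA8 footprints were 3.03, 1.99, 1.69 and 1.39 CPM at 5 h, against 14.5, 8.29, 14.2 and 10.4 CPM at 0 h. The CDCA8 footprint change was -2.52 ± 0.21 (adjusted p = 1.42e-13). Its RNA held 1, 2, 1 and 2 counts at 5 h, against 18, 24, 15 and 11 counts at 0 h, a change of -3.49 ± 0.40 (adjusted p = 5.08e-07). The summed counts give a 5 h to 0 h ratio of 0.0825 with a 95% counting interval of 0.0292 to 0.189.

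SGO1 was near the limit of detection at both times. Its footprint counts were 2, 5, 9 and 8 at 5 h, against 4, 6, 12 and 14 at 0 h. On the CPM scale these are 0.264, 0.828, 1.27 and 1.01 at 5 h, against 1.18, 1.27, 2.03 and 2.27 at 0 h, and the groups overlapped. The change of -1.07 ± 0.36 was called (adjusted p = 0.00812), but without 5 h replicate 1, the lowest library, it was -0.76 and not called (adjusted p = 0.0592). In RNA SGO1 had 1, 1, 0 and 1 counts at 5 h, against 3, 1, 0 and 0 counts at 0 h, a ratio of 0.701 with a counting interval of 0.103 to 4.14, so no difference was detectable at this depth, and without 0 h replicate 1 the fitted change was 0.86 (adjusted p = 0.635). SGO1 passed the RNA filter on low counts through its 15 h libraries and 1 library at 10 h, so its later RNA rise is not independent of that filter.

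**Figure D2:**
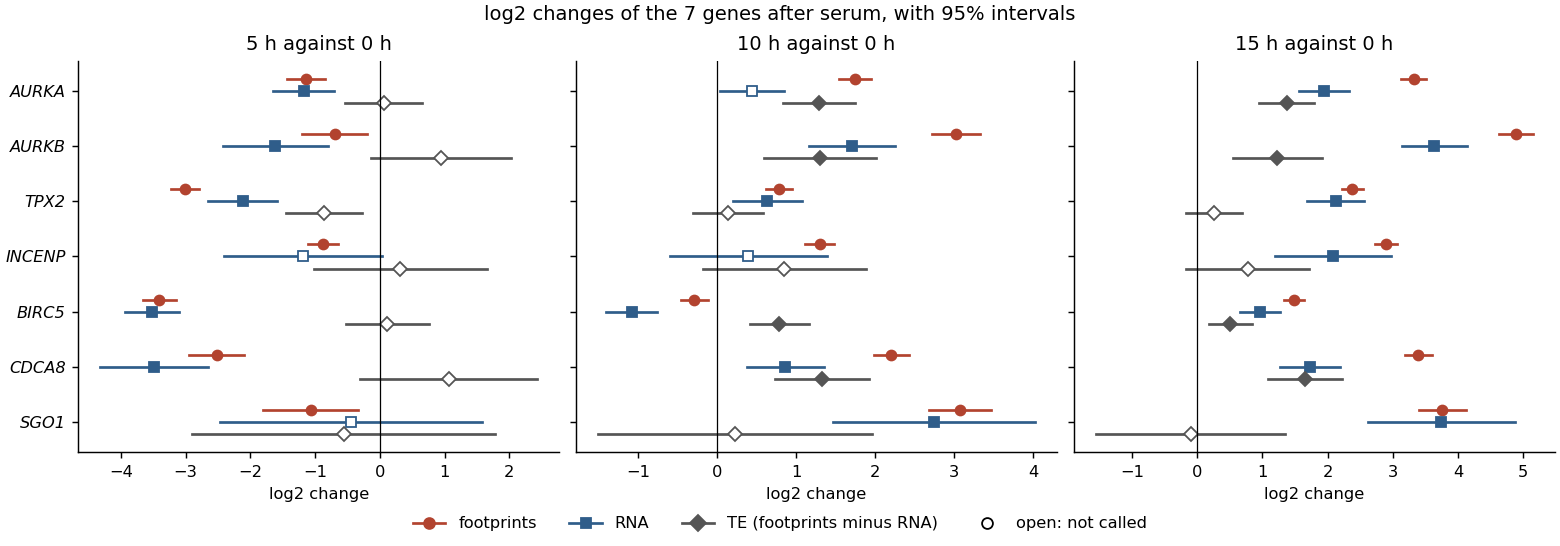
log2 change (x axis) of each gene at 5, 10 and 15 h of serum against 0 h, with 95% intervals from the fits, in footprints (circles), RNA (squares) and translational efficiency (diamonds, footprints minus RNA); filled symbols are called. At 15 h every footprint and RNA interval lies above 0, and at 10 h the BIRC5 intervals of both assays lie below 0.

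By 10 h of serum most of the genes had passed their 0 h level. Against 0 h, 6 of the 7 genes were called higher and 1, BIRC5, lower in footprints, and 4 were called higher and 1, BIRC5, lower in RNA. SGO1 is counted among those 4, and its RNA rise is not independent of the filter on low counts. Among all genes tested, 39.4% were called higher and 39.0% lower in footprints, and 23.3% higher and 21.5% lower in RNA. Against 5 h all 7 were called in both assays, each of them higher, where 61.7% of all genes were called in either direction in footprints and 19.7% in RNA. By direction, 3396 of 10959 genes were called higher and 3366 lower in footprints, and 887 of 8775 higher and 839 lower in RNA. The median log2 change of the 7 from 5 h to 10 h was 3.72 in footprints and 2.75 in RNA, with medians over all genes of -0.01 and -0.06.

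AURKA footprints reached 53.6, 68.1, 62.2 and 54.5 CPM at 10 h and AURKA RNA 67.6, 60.5, 59.3 and 73.9 CPM. Against 0 h the footprints were 3.35-fold higher (1.74 ± 0.10, adjusted p = 3.08e-17), while the RNA change of 0.44 ± 0.19 was not called (adjusted p = 0.0680, unadjusted 95% interval 0.04 to 0.84). The RNA groups overlapped and the footprint groups did not. Without 0 h replicate 1, the highest of its group, the RNA change was 0.64 and was called (adjusted p = 0.0162). TPX2 had 241, 246, 252 and 212 CPM of footprints and 164, 188, 103 and 159 CPM of RNA at 10 h. Its footprint change against 0 h was the smallest of the 6 rises, at 0.78 ± 0.08 without overlap, and its RNA groups overlapped, with a change of 0.63 ± 0.21 (adjusted p = 1.24e-09 and 0.0183). Without 10 h replicate 2 the RNA change was 0.52 and missed the threshold (adjusted p = 0.0562). Against 5 h TPX2 footprints were 13.8-fold higher (3.79 ± 0.10, adjusted p = 3.92e-22).

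AURKB footprints were 38.2, 54.3, 50.2 and 38.9 CPM at 10 h, and its RNA was 45.1, 55.7, 49.95 and 35.1 CPM. Every 10 h library was above every 0 h library in both assays, and the changes were 3.02 ± 0.15 in footprints (8.12-fold, adjusted p = 8.57e-18) and 1.70 ± 0.26 in RNA (3.26-fold, adjusted p = 1.81e-05). INCENP, its scaffold, was tight in footprints at 10 h, with 63.9, 63.1, 59.8 and 69.1 CPM, and spread widely in RNA, with 12.3, 38.4, 10.9 and 29.7 CPM. The INCENP changes against 0 h were 1.30 ± 0.09 in footprints (adjusted p = 7.27e-16) and 0.39 ± 0.47 in RNA (adjusted p = 0.529, not called). Against 5 h the RNA rise of 1.58 ± 0.54 was at the threshold (adjusted p = 0.0465) and missed it under 7 of 14 alternatives. These included leaving out 10 h replicate 2 or 4 or 5 h replicate 2, 3 or 4, with changes from 1.23 (adjusted p = 0.157, without 10 h replicate 2) to 1.68 (adjusted p = 0.0829, without 5 h replicate 2).

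BIRC5 was the exception. At 10 h its footprints were 38.2, 45.6, 39.2 and 38.3 CPM and its RNA 67.6, 67.3, 62.4 and 62.2 CPM, all below their 0 h libraries. In footprints the highest 10 h library (45.6 CPM) was just under the lowest 0 h library (45.9 CPM). The changes against 0 h were -0.29 ± 0.08 in footprints (adjusted p = 0.00225) and -1.08 ± 0.16 in RNA (adjusted p = 9.09e-06). Against 5 h BIRC5 had nevertheless risen 8.68-fold in footprints (3.12 ± 0.12, adjusted p = 2.78e-23) and 5.43-fold in RNA (2.44 ± 0.21, adjusted p = 6.41e-09).

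CDCA8 rebounded most from 5 h. Its footprints were 49.9, 58.1, 57.5 and 50.03 CPM at 10 h, 26.5-fold above 5 h (4.73 ± 0.14, adjusted p = 7.31e-27) and 4.61-fold above 0 h (2.21 ± 0.11, adjusted p = 2.75e-20). Its RNA of 39.9, 50.9, 29.7 and 35.1 CPM was 0.86 ± 0.23 above 0 h on the log2 scale (adjusted p = 0.00465). SGO1 footprints were 14.7, 15.3, 16.8 and 13.3 CPM at 10 h and separated fully from both earlier times, with changes of 3.07 ± 0.19 against 0 h and 4.14 ± 0.20 against 5 h (adjusted p = 1.20e-17 and 9.17e-21). SGO1 RNA had 14, 7, 7 and 7 counts at 10 h, and its summed counts were 7.27 times those at 0 h (counting interval 2.60 to 28.2).

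The last comparison took the genes to 15 h. All 7 were called higher than at 0 h in both assays, and against 10 h all 7 were called higher in footprints and 6 in RNA. The 7 in RNA include SGO1, which passed the RNA filter through its 15 h libraries and 1 library at 10 h. Of all genes tested at 15 h against 0 h, 40.1% were called higher and 39.6% lower in footprints, and 25.4% higher and 25.4% lower in RNA. At 15 h against 10 h the shares were 20.8% higher and 20.2% lower in footprints, and 3.81% higher and 2.11% lower in RNA, the smallest of the 5 RNA comparisons. The 7 genes had median changes of 1.60 in footprints and 1.51 in RNA from 10 h to 15 h, with -0.00466 and -0.03 over all genes.

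Aurora A footprints were 173, 199, 172 and 170.4 CPM at 15 h and its RNA 205, 145, 191 and 206 CPM. Against 0 h that is 10.00-fold higher in footprints (3.32 ± 0.09, adjusted p = 7.85e-27) and 3.85-fold in RNA (1.95 ± 0.18, adjusted p = 1.53e-08). The step from 10 h was 1.58 ± 0.07 in footprints and 1.51 ± 0.17 in RNA (adjusted p = 2.32e-19 and 2.34e-06). TPX2 had 682, 769, 694 and 735 CPM of footprints and 381, 535, 370.5 and 449.9 CPM of RNA. Its change against 0 h was 2.38 ± 0.08 in footprints and 2.12 ± 0.21 in RNA (adjusted p = 3.74e-20 and 2.82e-08), and no 15 h library overlapped an earlier one.

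AURKB rose most in footprints. It had 156, 171, 175 and 165 CPM of footprints and 187, 157, 182 and 183 CPM of RNA at 15 h. Against 0 h it was 29.7-fold higher in footprints (4.89 ± 0.12, adjusted p = 4.62e-25) and 12.5-fold higher in RNA (3.64 ± 0.24, adjusted p = 5.30e-11). From 10 h to 15 h it gained 1.87 ± 0.08 in footprints and 1.94 ± 0.20 in RNA (adjusted p = 4.57e-18 and 3.90e-07).

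INCENP footprints were 199, 203, 189 and 186 CPM at 15 h, close together. INCENP RNA was 61.98, 135, 74.9 and 35.4 CPM at the same time, with replicate 2 far above replicate 4. The change against 0 h was 2.90 ± 0.08 in footprints and 2.08 ± 0.43 in RNA (adjusted p = 3.00e-28 and 0.000465). The 15 h RNA values rested on 59, 144, 58 and 34 counts, and neither assay's 15 h libraries overlapped those at 0 h. From 10 h the gain was 1.61 ± 0.07 in footprints and 1.69 ± 0.40 in RNA (adjusted p = 1.94e-21 and 0.0124). The RNA groups overlapped there, and with no filter on low counts the RNA gain was not called (adjusted p = 0.0630).

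BIRC5 footprints were 140.3, 145, 140.4 and 127 CPM at 15 h and its RNA 280.5, 228, 261 and 309 CPM. Its change against 0 h, 1.48 ± 0.08 in footprints and 0.97 ± 0.15 in RNA (adjusted p = 3.02e-20 and 1.20e-05), was the smallest of the 7, while its gain from 10 h, 1.77 ± 0.07 and 2.05 ± 0.15, was the largest of the 7 in RNA (adjusted p = 4.43e-22 and 2.71e-09). CDCA8 had 117, 126, 128 and 119 CPM of footprints and 77.7, 90.6, 61.97 and 55.2 CPM of RNA at 15 h. Against 0 h borealin was 10.5-fold higher in footprints (3.39 ± 0.10, adjusted p = 1.18e-27) and 3.31-fold in RNA (1.73 ± 0.22, adjusted p = 1.36e-06). Its gain from 10 h was 1.19 ± 0.07 in footprints and 0.86 ± 0.20 in RNA (adjusted p = 1.09e-16 and 0.00946).

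SGO1 had 23.2, 26.3, 23.2 and 24.5 CPM of footprints and 19, 24, 15 and 13 RNA counts at 15 h. Its footprints were 3.76 ± 0.18 above 0 h on the log2 scale (adjusted p = 8.09e-22). From 10 h the gain was 0.69 ± 0.10 in footprints (adjusted p = 5.08e-07), the smallest of the 7, and 0.999 ± 0.35 in RNA, which was not called (adjusted p = 0.112). Without 10 h replicate 1 that RNA gain was 1.34 and was called (adjusted p = 0.0352). Its summed RNA counts at 15 h were 14.8 times those at 0 h, with a counting interval of 5.53 to 55.8. The 15 h libraries are those through which SGO1 passed the RNA filter, so this ratio is not independent of it. Taking the 15 h mean as 100, footprints at 10 h stood at 61.6% for SGO1 and 43.9% for CDCA8, and between 27.2% (AURKB) and 33.4% (AURKA) for the other five. By that measure SGO1 and CDCA8 were furthest along at 10 h, in RNA as well, with 50.9% and 54.5%.

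Whether footprints and RNA moved to the same extent was tested as translational efficiency (TE, how much more a gene's footprints changed than its RNA on the log2 scale, from 1 fit over both assays). At 10 h and at 15 h against 0 h, TE was called higher for the same 4 genes, AURKA, AURKB, BIRC5 and CDCA8. No TE change of the 7 was called lower in any of the 5 comparisons. Over all genes tested for TE, 7.69% were called higher and 1.01% lower at 10 h, and 11.2% higher and 1.77% lower at 15 h. The ratio of mean footprint CPM to mean RNA CPM, which has meaning only relative to other times, was 0.956 at 15 h for AURKA, against 0.370 at 0 h. For CDCA8 it was 1.72 at 15 h, against 0.556 at 0 h.

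The TE change of AURKA was 1.29 ± 0.22 at 10 h and 1.37 ± 0.21 at 15 h (adjusted p = 6.26e-05 and 6.15e-06). CDCA8 had 1.33 ± 0.29 and 1.65 ± 0.28 at those times (adjusted p = 0.00158 and 4.33e-05). For both the calls held under every alternative run. The TE change of AURKB was 1.30 ± 0.35 and 1.23 ± 0.34 (adjusted p = 0.0130 and 0.0101), and it rests on 44 RNA counts at 0 h. Without RNA 0 h replicate 2 it was 1.17 at 10 h and 1.06 at 15 h (adjusted p = 0.0800 and 0.0817), and without replicate 3 it was 1.06 and 0.99 (adjusted p = 0.0973 and 0.0901), so either library ends both calls. The 10 h call was also lost in a fit to the compared groups alone (1.29, adjusted p = 0.0520). BIRC5 had 0.79 ± 0.18 at 10 h (adjusted p = 0.00333) and 0.51 ± 0.16 at 15 h (adjusted p = 0.0324), and the 15 h call was lost under 11 of 22 alternatives. It was 0.47 with RLE scaling (adjusted p = 0.0532), and it was lost without RNA 0 h replicate 1 or 4, RNA 15 h replicate 2, footprint 0 h replicate 2 or 3, or footprint 15 h replicate 2 or 3, lowest at 0.34 without RNA 15 h replicate 2 (adjusted p = 0.145).

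For TPX2, the partner of Aurora A, the TE change was 0.14 ± 0.22 at 10 h and 0.25 ± 0.21 at 15 h, neither called (intervals -0.30 to 0.58 and -0.17 to 0.68), and the intervals lie below those of AURKA, 0.84 to 1.74 and 0.95 to 1.80. The difference between the genes was not tested. INCENP and SGO1 had wide TE intervals at 15 h, -0.16 to 1.71 and -1.55 to 1.35, and were not called. Without RNA 15 h replicate 2, the library with the high INCENP value, the INCENP change at 15 h was 1.15 and was called (adjusted p = 0.0404).

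At 5 h against 0 h no TE change of the 7 was called, where 6.40% of all genes were. The TPX2 change of -0.87 ± 0.29 came nearest (adjusted p = 0.0673) and was the 1 change of the 7 with an unadjusted p under 0.05, and DESeq2 called it (-0.89, adjusted p = 0.0160). edgeR called it without RNA 5 h replicate 3 (-1.07, adjusted p = 0.0242), footprint 0 h replicate 2 (-0.98, adjusted p = 0.0329) or footprint 5 h replicate 1 (-0.97, adjusted p = 0.0426). From 5 h to 10 h edgeR called AURKA alone, at 1.23 ± 0.27 (adjusted p = 0.0130), in a comparison with 0.755% of all genes called. DESeq2 also called TPX2 there (0.94, adjusted p = 0.0341). The edgeR call of AURKA was lost without RNA 5 h replicate 1 (1.07, adjusted p = 0.0957) or replicate 3 (1.16, adjusted p = 0.0937). From 10 h to 15 h edgeR called 0 of the 7 and 0.00% of all genes, and 542 of 8736 genes, 0 of the 7 among them, had an unadjusted p under 0.05. DESeq2 called 2 genes of the whole table there and 0 of the 7.

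Compared per coding length, the order of the 7 genes changed with time. The unit here is CPM per kb of the deposited length, as mean ± SD over 4 libraries, so the order rests on those lengths. At 15 h the footprint order was TPX2 (329.7 ± 18.4), BIRC5 (315 ± 17.4), AURKB (171 ± 8.43), CDCA8 (157 ± 6.79), AURKA (155 ± 11.8), INCENP (72.01 ± 2.99) and SGO1 (29.7 ± 1.76). There TPX2 and BIRC5 overlapped, and AURKB, CDCA8 and AURKA each overlapped the next. In footprints at 0 h BIRC5 was at 113 ± 5.95 and TPX2 at 63.5 ± 8.67, and both were above AURKA (15.5 ± 2.75), CDCA8 (15.1 ± 3.87), INCENP (9.95 ± 2.48), AURKB (5.95 ± 1.40) and SGO1 (2.06 ± 0.664). Of the neighbours in that order at 0 h, AURKA and CDCA8 overlapped, and so did CDCA8 and INCENP. AURKB thus stood beside AURKA and CDCA8 at 15 h and next to last at 0 h.

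In RNA BIRC5 led at every time, with 616 ± 78.03 CPM per kb at 15 h and 315 ± 46.6 at 0 h, though at 5 h its libraries overlapped those of AURKA. At 15 h TPX2 (199 ± 34.8), AURKB (181 ± 14.03) and AURKA (162 ± 24.97) followed with overlapping libraries, then CDCA8 (91.2 ± 20.4), and INCENP (28.4 ± 15.5) and SGO1 (22.98 ± 4.60) overlapped at the bottom. At 5 h every neighbour in the RNA order overlapped the next.

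**Figure D3:**
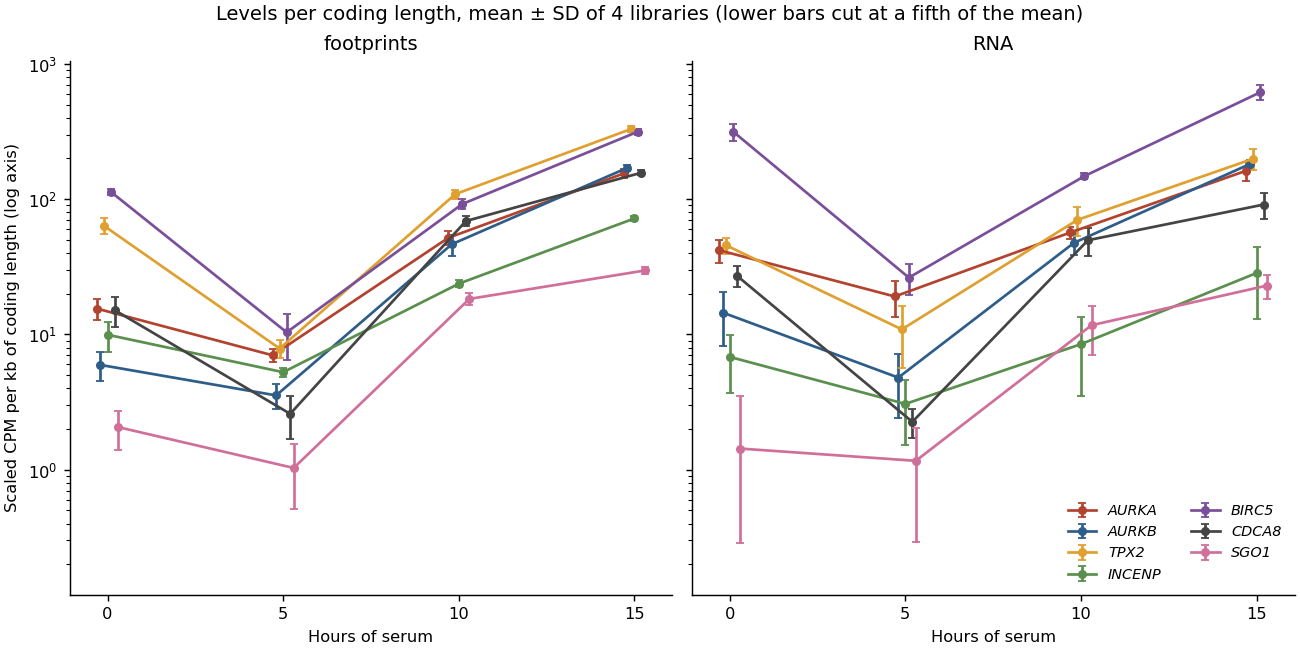
Scaled CPM per kb of coding length (log y axis) of the 7 genes against hours of serum (x axis) in footprints (left) and RNA (right), as mean ± SD of 4 libraries, with lower bars shortened where the SD nears or exceeds the mean. The AURKB line starts below INCENP in footprints at 0 h and ends beside AURKA and CDCA8 at 15 h.

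Ratios between genes within a library do not depend on library scaling. They show how the proportions of the genes' footprints, or of their RNA, differed between times. They are descriptions without a test. The AURKB to AURKA footprint ratio per coding length was 0.317 to 0.486 at 0 h, 0.439 to 0.580 at 5 h, 0.839 to 0.951 at 10 h and 1.02 to 1.20 at 15 h, so the 10 and 15 h libraries lay above all earlier ones. In RNA the same ratio was 1.05 to 1.28 at 15 h, against 0.139 to 0.589 at 0 h. The ratio of TPX2 to AURKA footprints was highest in the 0 h libraries, with 3.66 to 4.97 at 0 h, 0.894 to 1.28 at 5 h, 1.91 to 2.37 at 10 h and 2.04 to 2.28 at 15 h. In RNA that ratio overlapped between 15 h (0.982 to 1.95) and 0 h (0.874 to 1.36).

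Within the passenger complex, AURKB footprints per coding length were 2.17 to 2.55 times those of INCENP at 15 h, against 0.572 to 0.657 times at 0 h. The BIRC5 to INCENP ratio was 8.64 to 14.4 at 0 h, 1.12 to 3.17 at 5 h, 3.41 to 4.45 at 10 h and 4.21 to 4.58 at 15 h, so survivin's excess over the scaffold was greatest at 0 h. The CDCA8 to INCENP ratio was 1.20 to 1.97 at 0 h, 0.357 to 0.800 at 5 h, 2.49 to 3.31 at 10 h and 2.04 to 2.34 at 15 h, with its low at 5 h and its high at 10 h. SGO1 footprints per coding length were 0.159 to 0.183 times those of AURKB at 15 h, against 0.336 to 0.459 times at 10 h, without overlap.

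**Figure D4:**
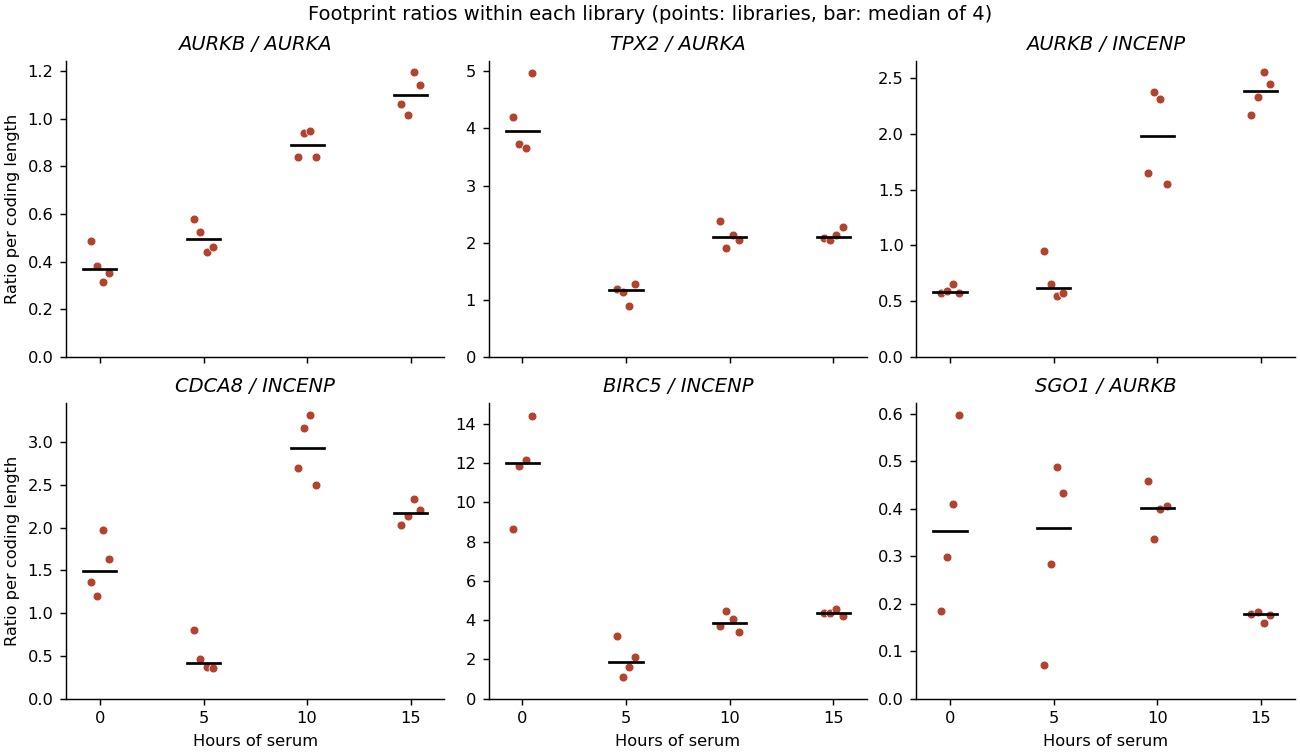
Ratio of footprint CPM per coding length between pairs of the genes (y axis, linear from 0) in each of the 4 libraries at each hour of serum (x axis); bars are medians. The AURKB to AURKA ratio is below 0.6 in all 0 and 5 h libraries and above 0.8 in all 10 and 15 h libraries.

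Genes that work with the Aurora kinases were counted from lists chosen by function. Of 13 partners and regulators of Aurora A, 11 were tested in footprints, and at 5 h against 0 h 8 fell, 1 rose and 2 were not called (median log2 change -0.75), where 40.5% of all genes fell and 35.2% rose. The deepest fall was HMMR, a spindle protein that binds TPX2, at -3.96 ± 0.24, and the gene that rose was PPP6C, the catalytic subunit of the phosphatase that opposes Aurora A, at 0.61 ± 0.06. At 15 h against 0 h 9 rose and 2 fell in footprints, from the spindle-pole protein NUMA1 at -0.89 ± 0.05 to the spindle motor KIF11 at 3.06 ± 0.07, where 40.1% of all genes rose and 39.6% fell. In RNA 5 of 10 rose and 1 fell at 15 h, again NUMA1 (-1.35 ± 0.31), where 25.4% of all genes rose and 25.4% fell. From 10 h to 15 h all 11 rose in footprints, between AURKAIP1 at 0.19 ± 0.06 and HMMR at 2.24 ± 0.13, while 20.8% of all genes rose and their median was -0.00466.

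Of 14 genes that recruit the passenger complex or remove it, 9 fell and 3 rose in footprints at 5 h, against 40.5% of all genes that fell and 35.2% that rose. KIF20A, the motor that moves the complex to the midzone, fell furthest, at -5.16 ± 0.20 in footprints and -4.61 ± 0.21 in RNA. HASPIN, the kinase whose histone mark docks the complex, had the highest change at 0.70 ± 0.28; it lies inside another gene, so its reads are uncertain. At 15 h 12 of the 14 rose and 2 fell in footprints, with CDK1, the main mitotic kinase, at 4.97 ± 0.09 and KLHL9, an adaptor that takes Aurora B off chromosomes, at -0.43 ± 0.05. Among all genes 40.1% rose and 39.6% fell there. In RNA 8 of the 14 rose and 1 fell, with 25.4% of all genes called in each direction, and the gene that fell was the related adaptor KLHL21 at -1.08 ± 0.31.

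Of the 13 tested substrates of Aurora B, 12 fell at 5 h in footprints, most of all the chromokinesin KIF4A at -3.48 ± 0.14, and 1 rose, vimentin (VIM), at 2.03 ± 0.06. Over all genes 40.5% fell and 35.2% rose. In RNA 11 fell and 0 rose, where 16.7% of all genes fell and 19.2% rose, with the microtubule depolymerase KIF2C lowest at -2.93 ± 0.26. At 15 h all 13 rose in footprints, from stathmin (STMN1) at 1.06 ± 0.06 to topoisomerase TOP2A at 4.08 ± 0.16, with a list median of 2.99 against -0.01 over all genes, of which 40.1% rose. In RNA 11 rose and 1 fell, VIM at -0.40 ± 0.13, with 25.4% of all genes called in each direction.

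The anaphase-promoting complex marks both Aurora kinases for destruction at the end of mitosis. Of 7 genes of that list, 4 fell and 2 rose in footprints at 5 h, between the activator CDC20 at -2.69 ± 0.10 and the inhibitor FBXO5 (EMI1) at 1.85 ± 0.19. These counts lie near the shares over all genes, 40.5% lower and 35.2% higher. At 15 h 5 rose and 0 fell, from CDC27 at 0.87 ± 0.07 to FBXO5 at 6.41 ± 0.11, where 40.1% of all genes rose and 39.6% fell. In RNA 5 rose and 0 fell, with 25.4% of all genes called in each direction, and FBXO5 was at 4.50 ± 0.27.

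Among 10 transcription factors and repressor subunits known at promoters of this kind, 3 fell and 2 rose in footprints at 5 h, shares no higher than those over all genes (40.5% lower and 35.2% higher). The activator FOXM1 fell most, at -2.57 ± 0.13 in footprints and -1.62 ± 0.36 in RNA, and E2F4, the E2F of the DREAM repressor, was highest, at 1.20 ± 0.09 and 1.33 ± 0.14. At 10 h 7 rose and 1 fell in footprints against 0 h, where 39.4% of all genes rose and 39.0% fell, with MYBL2 (B-MYB, the activating partner of MuvB) at 4.53 ± 0.18 and RBL2 (p130, the pocket protein of DREAM) at -1.24 ± 0.07. At 15 h MYBL2 was at 5.27 ± 0.16 and RBL2 at -1.10 ± 0.07. From 10 h to 15 h FOXM1 had the largest rise of the list, 1.45 ± 0.07 in footprints and 1.14 ± 0.30 in RNA, where it was the 1 gene of the 10 called.

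TE was counted over the same lists. At 15 h against 0 h 2 of 10 Aurora A partners, 5 of 14 recruitment and removal genes, 4 of 13 Aurora B substrates, 3 of 7 genes of the anaphase-promoting complex list and 2 of 10 transcription factors were called higher, where 11.2% of all genes were, and 0 were called lower. CDC25B, a phosphatase that Aurora A acts on, led its list at 1.72 ± 0.24, and FBXO5 led its own at 1.88 ± 0.43. HASPIN, whose reads are uncertain, led the recruitment and removal genes at 3.28 ± 0.42. LIN37 led the transcription factors at 1.21 ± 0.40. VIM led the Aurora B substrates at 2.36 ± 0.15; its footprints were 2265 CPM in the lowest library and 10969 CPM in the highest.

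**Figure D5:**
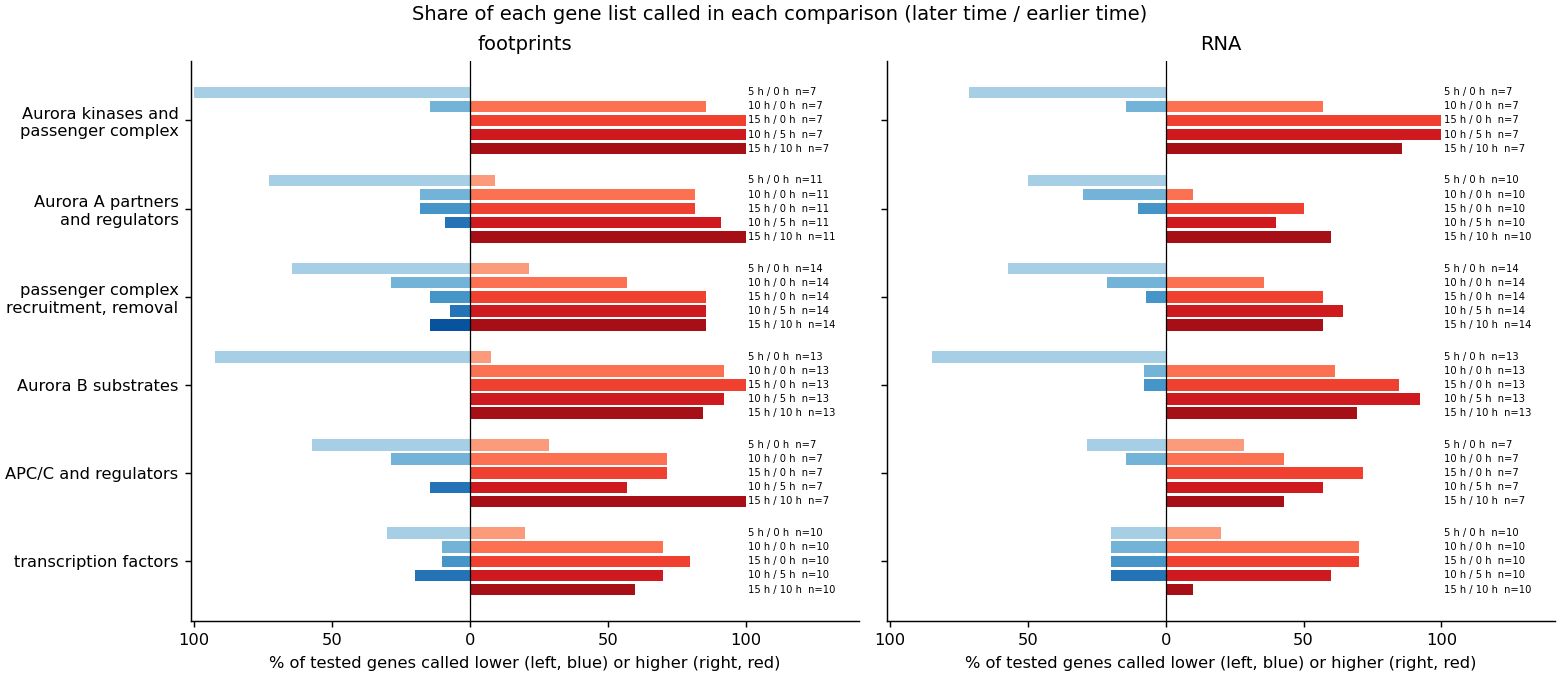
Percent of the tested genes of each list (x axis) called higher (right) or lower (left) in footprints and RNA, 1 bar for each comparison, with the number of genes tested at the end of the bar. At 5 h against 0 h most bars point left and from 10 h to 15 h nearly all bars point right.

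The genes whose footprint pattern was most like that of each kinase were found over the 16 footprint libraries, by Pearson's r of log2(CPM + 1) among 7975 genes with a mean of at least 10 CPM. For AURKA they were the histone gene H2AC11 (r = 0.997), RTKN2 (0.997), the unnamed identifier ENSG00000274267 (0.996), ECT2 (0.996), the exchange factor of cytokinesis, and NUF2 (0.996), a subunit of the NDC80 kinetochore complex. For AURKB they were UBE2C (0.998), the ubiquitin-conjugating enzyme of the anaphase-promoting complex, and the histone genes H2BC11 (0.998), H2AC17 (0.997), H1-5 (0.997) and H2AC12 (0.997). The libraries fall into 4 time groups, so such r values mainly rank genes by their means at 4 times. Histone genes are near-identical copies, and which copy a read was given to is uncertain.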

How the data were processed

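The authors deposited counts, as whole numbers of reads per gene and library, not normalised. STAR 2.5.4a, featureCounts 1.5.1 and GRCh38 are listed by the submitters' processing notes; strand setting, annotation release and the handling of shared reads are not given in the sources used here. All 32 columns were matched to samples by label, and 18905 of 19023 identifiers had a symbol. Genes passing filterByExpr (minimum count 10, total 15) by time group were fitted with edgeR 4.0.16 (robust quasi-likelihood; R 4.3.3): 10959 in footprints, 8775 in RNA and 8736 in the joint TE fit (assay-by-time interaction). Library sizes were summed over the filtered genes and scaled by TMM within each assay. Alternatives were RLE scaling, no filter, DESeq2 1.42.0, a replicate block, the compared groups alone, TMM over all genes, and leaving out each library. Deviations of same-numbered libraries correlated at 0.118 to 0.322 in RNA at 15 h against 0 h, over 0.1 for all 4 pairs. The block changed no call of the 7 in that comparison. In no other comparison were all pairs over 0.1, but single RNA pairs correlated more strongly. The highest were 0.480 at 10 h against 0 h, 0.543 at 10 h against 5 h and 0.539 at 15 h against 10 h. Calls that the block changed in these comparisons are given in the last section. Intervals on count ratios cover counting error only. The code was tested on simulated data. The members, gene lists and tests were chosen with earlier results of these data known. Named genes were the 7, the highest and lowest called gene of each list in a comparison, and the 5 most alike genes per kinase. The edgeR P values set a change against the spread between libraries, estimated over all libraries of a fit and moderated across genes. Standard errors were derived from the log2 change and its F statistic.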

Additional observations from a re-analysis of the deposited data

Results flagged for a closer look

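With 4 libraries in a group, a library was marked when its gap to the nearest other library, as a share of the group's range, was above Dixon's 95% critical value. Of 56 groups of member levels, 4 held such a library, where chance marks about 1 in 20 groups.

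AURKA footprints in 15 h replicate 2 were 199 CPM, above the 170.4 to 173 CPM of the other three. BIRC5 footprints in 10 h replicate 2 were 45.6 CPM, above 38.2 to 39.2 CPM. AURKB RNA in 15 h replicate 2 was 157 CPM, below 182 to 187 CPM. TPX2 RNA in 0 h replicate 4 was 79.2 CPM, below 104 to 108 CPM. No cause was tested.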

How the results depend on the processing

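Of 105 log2 changes of the 7 genes, 82 kept their direction and their side of the threshold under every alternative and 9 changed sign when 1 library was left out; the rest kept their direction and changed side at least once. None of those 9 was called with or without the library. Their ranges over the left-out libraries were -0.0643 to 0.15 for AURKA TE 15 h against 10 h, -0.10 to 0.22 for AURKA TE 5 h against 0 h, -0.19 to 0.0268 for AURKB TE 15 h against 10 h, -0.13 to 0.28 for BIRC5 TE 5 h against 0 h, -0.43 to 0.35 for INCENP TE 15 h against 10 h, -0.00238 to 0.58 for INCENP TE 5 h against 0 h, -0.78 to 0.86 for SGO1 RNA 5 h against 0 h, -1.32 to 0.58 for SGO1 TE 10 h against 0 h and -1.68 to 0.25 for SGO1 TE 15 h against 0 h. The number of the 7 called changed by over 1.5 times for TE only: at 5 h against 0 h DESeq2 called 1 and leaving out a library gave 0 to 1, and at 10 h against 5 h DESeq2 called 2 and leaving out a library gave 0 to 1, where edgeR called 0 and 1. TMM factors from all genes, chosen after seeing the data, shift every RNA change at 15 h against 0 h by 0.11 and make the AURKA RNA change at 10 h called (0.51, adjusted p = 0.0373). With the replicate number as a block, AURKA RNA at 10 h against 0 h (0.44, adjusted p = 0.0226) and SGO1 RNA at 15 h against 10 h (1.01, adjusted p = 0.0377) became called, and the call of INCENP RNA at 10 h against 5 h (1.64, adjusted p = 0.0503) was lost; the block changed no other call of the 7. Over all genes the block gave 1170 RNA calls at 15 h against 10 h, where the fit without it gave 519, and TE calls of 1021 at 5 h and 1701 at 15 h against 0 h, 188 at 10 h against 5 h and 6 at 15 h against 10 h, where the fit without it gave 559, 1132, 66 and 0. DESeq2 gave 115 and 2 TE calls at 10 h against 5 h and at 15 h against 10 h. For TE at 10 h against 0 h DESeq2 called 596 genes higher and 230 lower, where edgeR called 672 and 88. At 15 h against 0 h DESeq2 called 806 genes higher and 473 lower, where edgeR called 977 and 155. The causes were not tested. Depth limits RNA most: at 5 h CDCA8 had 6 counts and SGO1 3 over 4 libraries.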
